A study of Mus musculus with 32 samples.

Results

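The ligands and receptors of 2 growth factor families, platelet-derived growth factor (PDGF) and transforming growth factor beta (TGF-beta), were followed in whole bone marrow of the mouse femur during ablation of the adiponectin-Cre lineage. The 10 genes were chosen by name from 41388 genes in the tables: the ligands Pdgfa, Pdgfb, Tgfb1, Tgfb2 and Tgfb3 and the receptors Pdgfra, Pdgfrb, Tgfbr1, Tgfbr2 and Tgfbr3. The choice was made with earlier results of these data known. All 10 were among the 14527 genes that passed the filter on low counts and were tested.

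DTRADQ mice carry a loxP-controlled diphtheria toxin receptor (DTR flox) together with adiponectin-Cre (ADQ Cre+), so that cells with a history of the adiponectin promoter become sensitive to diphtheria toxin (DT). Their controls were littermates with DTR flox and no Cre, and both genotypes were on the C57BL/6 background. Mice of 2 months received 100 ng of DT per mouse by daily intraperitoneal injection for 1, 2 or 3 days, or no DT, in 8 groups of 4 mice with 1 library each. The sensitive cells are those with a Cre history, which may be wider than adipocytes. At day 1, 13 of 14 listed markers of the adiponectin lineage stroma, such as Lepr and Cxcl12, were lower, against 3.90% of all genes called. That list was chosen with earlier results of these data known, so the count is a description only. The p-values measure the spread between these mice.

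Library totals ran from 8.97 to 22.9 M counts. On day 1 the DTRADQ libraries held no more than 1.07 counts per M (CPM) of Adipoq, the adiponectin transcript of the targeted lineage, whereas 36.2 CPM was the lowest control. The highest DTRADQ library of day 3 held 0.599 CPM of it and the lowest control 32.1 CPM. The control libraries without DT stood apart in scaling: their factors by the trimmed mean of M-values (TMM) ran from 0.565 to 1.01, against 0.886 to 1.19 in all other libraries. The lowest belonged to control replicates 3 and 4 without DT, and results that rest on these are given with and without them. Levels below are CPM with TMM scaling, and changes are log2 differences of DTRADQ from controls of the same day with their standard errors (SE), tested by edgeR's quasi-likelihood test with Benjamini-Hochberg adjustment over all genes and a threshold of 0.05.

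PDGF ligands are dimers that act through 2 receptor tyrosine kinases. The alpha receptor binds chains A and B and marks many mesenchymal progenitors, while the beta receptor binds chain B and marks pericytes and other perivascular stroma. TGF-beta ligands are secreted in latent complexes held in the matrix. Once released they bind the type II receptor, which phosphorylates the type I receptor and through it the SMAD proteins. The type III receptor, betaglycan, is a co-receptor that TGF-beta 2 in particular relies on. Marrow stores both families in platelets and bone matrix, and both act on stromal cells and osteoblast progenitors. In bulk marrow, fewer cells of a type and less RNA per cell cannot be told apart.

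Promoter sequences, 250 bases before the start site, are shown for 4 genes whose levels diverged at day 3: Tgfb2, which rose, beside Tgfb1, whose change did not pass, and Pdgfa, which rose, beside Pdgfra, which fell. RefSeq (GRCm38.p6) windows were searched for 6 of the 10 genes, 8 windows in all, and Pdgfrb was left out of this search. Tgfb2 is read on the minus strand (chr1:186705990-186706239), Tgfb1 on the plus strand (chr7:25686752-25687001), Pdgfa at the second of its 2 start sites on the minus strand (chr5:138994945-138995194) and Pdgfra on the plus strand (chr5:75152001-75152250). Capitals mark matches to the motifs searched, each written 5′ to 3′.
Tgfb2: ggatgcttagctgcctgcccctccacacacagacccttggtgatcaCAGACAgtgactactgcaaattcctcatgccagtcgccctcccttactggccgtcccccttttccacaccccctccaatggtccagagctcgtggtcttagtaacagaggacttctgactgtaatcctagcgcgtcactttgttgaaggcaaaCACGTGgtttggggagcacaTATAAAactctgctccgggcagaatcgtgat
Tgfb1: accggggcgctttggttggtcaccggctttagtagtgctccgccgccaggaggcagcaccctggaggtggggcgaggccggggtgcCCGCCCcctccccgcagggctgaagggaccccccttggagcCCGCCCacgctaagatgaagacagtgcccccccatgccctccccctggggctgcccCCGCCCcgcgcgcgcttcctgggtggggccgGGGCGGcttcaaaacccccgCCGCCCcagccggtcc
Pdgfa: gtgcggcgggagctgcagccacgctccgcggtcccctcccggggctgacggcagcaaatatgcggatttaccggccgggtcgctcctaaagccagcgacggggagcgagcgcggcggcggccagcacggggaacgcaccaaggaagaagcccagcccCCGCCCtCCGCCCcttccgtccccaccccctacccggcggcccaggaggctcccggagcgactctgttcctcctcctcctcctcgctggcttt
Pdgfra: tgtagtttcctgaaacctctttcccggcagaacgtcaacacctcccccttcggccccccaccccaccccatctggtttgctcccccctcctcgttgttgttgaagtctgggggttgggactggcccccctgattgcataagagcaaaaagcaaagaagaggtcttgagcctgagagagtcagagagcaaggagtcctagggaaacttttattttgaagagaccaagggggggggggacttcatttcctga

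The motifs searched on both strands were the cyclic AMP response element CRE (TGACGTCA), the E-box (CACGTG), the TATA box (TATAAA), the AP-1 site (TGANTCA), the SP1 site (GGGCGG), the SMAD element (CAGACA) and the TEAD element (CATTCC), none of which contains another. The Tgfb2 window held an E-box with its first base at position -51 from the start site, a TATA box at -31 and a SMAD match at -204, and 53.6% of its bases were G or C. The Tgfb1 window held 5 SP1 matches and none of the other motifs, at 75.2% G or C. The Pdgfa window held 2 SP1 matches, at 72.4% G or C, and the Pdgfra window held no match, at 54.4%. Of 32851 mouse promoter windows of this length, 6.02% held the E-box, 12.4% the TATA box, 17.1% the SMAD motif, 32.7% the SP1 motif, 6.75% AP-1, 12.6% TEAD and 1.55% CRE. The median window was 52.4% G or C. These matches describe the letters of the windows only.

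Levels can be compared between genes only per length, as TMM-scaled reads per kilobase of exon and M reads (RPKM). In controls at day 3 the signalling receptors of TGF-beta stood highest, Tgfbr1 at 4.32 ± 0.653 RPKM (SD, n = 4) and Tgfbr2 at 4.08 ± 0.586, and their libraries overlapped. Then came Tgfbr3 at 1.39 ± 0.223, Pdgfb at 1.11 ± 0.291, Pdgfrb at 1.11 ± 0.142, Tgfb1 at 0.820 ± 0.114 and Pdgfa at 0.786 ± 0.132 RPKM, and neighbours in that order overlapped except Pdgfrb and Tgfb1, whose ranges did not touch (lowest 0.984 and highest 0.983 RPKM). Pdgfra at 0.385 ± 0.0404 lay below Pdgfa in every library, and it overlapped Tgfb3 at 0.245 ± 0.169. Tgfb2 was the lowest, at 0.132 ± 0.0831 RPKM. In DTRADQ at day 3 the order differed. Pdgfa at 2.80 ± 0.496 and Pdgfb at 2.12 ± 0.222 RPKM came next after the signalling TGF-beta receptors, Tgfb3 at 1.37 ± 0.181 and Tgfb2 at 1.08 ± 0.280 RPKM had joined Tgfb1 at 1.13 ± 0.177, and Pdgfra at 0.226 ± 0.0391 RPKM was last.

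**Figure D1:**
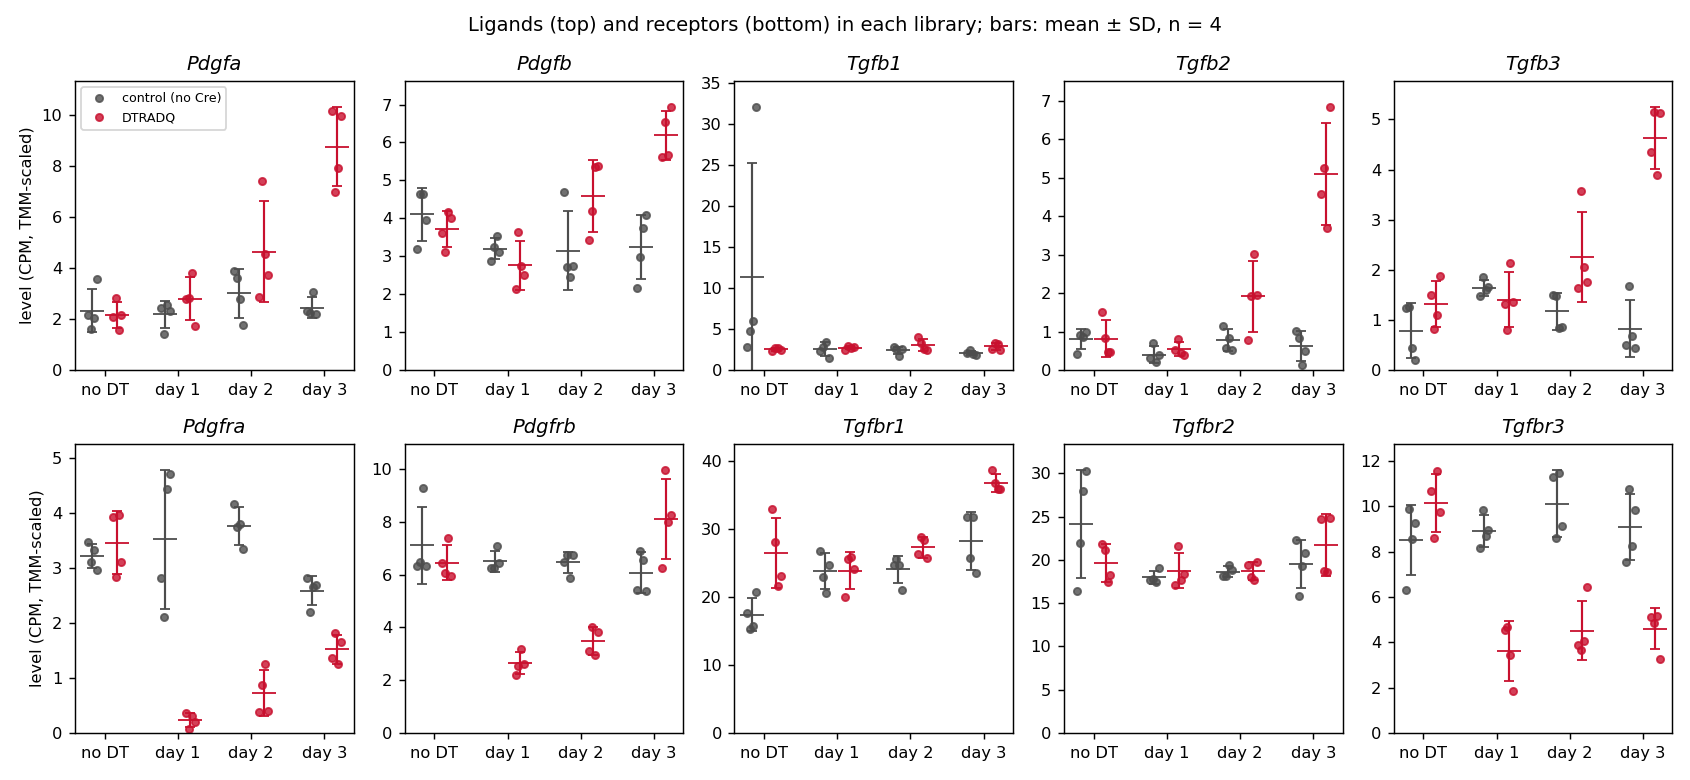
TMM-scaled CPM (vertical axis) of each ligand (top) and receptor (bottom) in every library by time on DT, controls in grey and DTRADQ in red, with the mean and SD of 4 libraries (the Tgfb1 bar in controls without DT reaches below the axis). Pdgfra, Pdgfrb and Tgfbr3 drop at day 1 in DTRADQ, Pdgfa, Pdgfb, Tgfb2 and Tgfb3 stand above the controls at day 3, and 1 control library without DT holds 32 CPM of Tgfb1.

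The receptors fell first. At day 1 of DT, 3 of the 10 genes passed the test, all of them receptors and all lower in DTRADQ, against 3.90% of all tested genes called in that comparison. At day 2 the same 3 genes passed, Pdgfra, Pdgfrb and Tgfbr3, against 8.52% of all genes. At day 3 the picture was of rises: 8 of 10 passed, 6 higher and 2 lower, against 22.9% of all genes. The ligands Pdgfa, Pdgfb, Tgfb2 and Tgfb3 were among the 6 that rose.

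Pdgfra, the PDGF alpha receptor (ENSMUSG00000029231, chromosome 5, 75152291 to 75198204), had the largest fall of the 10 genes at day 1. Its level was 2.82, 2.10, 4.45 and 4.72 CPM in the 4 controls and 0.367, 0.0729, 0.304 and 0.194 CPM in the 4 DTRADQ libraries, which held 5, 1, 4 and 2 reads. Every DTRADQ library lay far below every control. The change was -3.85 (SE 0.36, adjusted p = 4.08e-09), or 14.4-fold lower.

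Pdgfra then climbed without reaching the controls. At day 2 it stood at 0.389, 0.873, 1.25 and 0.391 CPM in DTRADQ against 4.17, 3.75, 3.81 and 3.34 CPM in controls, a change of -2.34 (SE 0.30, adjusted p = 2.61e-06). At day 3 it stood at 1.36, 1.83, 1.26 and 1.66 CPM against 2.81, 2.20, 2.66 and 2.70 CPM. The ranges still did not touch, and the change was -0.76 (SE 0.26, adjusted p = 0.0329). That last call was lost in 8 of 15 other settings, 6 of them fits without a single day-3 library (DTRADQ replicate 1, 3 or 4, or control replicate 1, 3 or 4), where the adjusted p ran from 0.0541 to 0.106. The genotype effect at day 3 was higher than at day 1 by 3.10 (SE 0.46, adjusted p = 7.16e-05) and higher than at day 2 by 1.58 (SE 0.40, adjusted p = 0.0395), though the latter passed in 9 of 23 other settings, with adjusted p up to 0.162. In these contrasts between days, which were chosen after seeing the data, 7.23% of all genes were called for day 3 against day 1 and 1.36% for day 3 against day 2. The day-3 libraries all carry a different lane label from the rest. In any contrast between day 3 and another day, lane and day therefore cannot be told apart.

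Pdgfrb, the PDGF beta receptor (ENSMUSG00000024620, chromosome 18), fell less and crossed the controls. Controls held 6.25, 6.25, 7.09 and 6.45 CPM at day 1. The DTRADQ libraries of that day held 2.20, 2.55, 3.20 and 2.62 CPM, all lower, with a change of -1.30 (SE 0.17, adjusted p = 2.76e-06). At day 2 they held 3.11, 4.02, 2.94 and 3.81 CPM against 5.87 to 6.75 CPM in controls, a change of -0.90 (SE 0.17, adjusted p = 0.000652).

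By day 3 Pdgfrb lay at 6.26, 9.96, 7.99 and 8.24 CPM in DTRADQ against 5.42, 6.91, 6.54 and 5.39 CPM in controls. The groups overlapped in 1 DTRADQ library. The change of 0.42 (SE 0.15) passed narrowly (adjusted p = 0.0436) and did not pass in 8 of 15 other settings, 5 of them fits without a single library (DTRADQ replicate 2, 3 or 4, or control replicate 1 or 4), with adjusted p from 0.0718 to 0.196. With the skeletal muscle covariate it was 0.27 (adjusted p = 0.332). The genotype effect rose by 1.72 from day 1 to day 3 (SE 0.23, adjusted p = 2.67e-05) and by 1.32 from day 2 to day 3 (SE 0.22, adjusted p = 0.00316), the latter without a call under the muscle covariate (1.11, adjusted p = 0.0894). Both PDGF receptors thus fell at day 1 and moved up afterwards, Pdgfra from 6.66% of its control mean at day 1 and Pdgfrb from 40.6%.

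Pdgfa, the A chain (ENSMUSG00000025856, chromosome 5, 138976014 to 138997370), passed only at day 3. Its level was then 10.1, 6.97, 7.92 and 9.95 CPM in DTRADQ against 2.30, 2.24, 3.07 and 2.21 CPM in controls. The groups lay well apart. The change was 1.83 (SE 0.27, adjusted p = 6.56e-06), or 3.56-fold. At day 2 the DTRADQ libraries spread from 2.88 to 7.42 CPM against 1.77 to 3.88 CPM in controls, a change of 0.62 that did not pass (SE 0.28, adjusted p = 0.157), and at day 1 the change was 0.36 (adjusted p = 0.579). The antisense gene 6330403L08Rik shares 813 exon bases with Pdgfa, 26.1% of its exon length, and the strand setting of the counting is not given in the sources used here. That gene held 0.111 CPM in controls and 0.392 CPM in DTRADQ at day 3, far below Pdgfa.

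Pdgfb, the B chain that endothelium and platelets make (ENSMUSG00000000489, chromosome 15, 79995900 to 80014808), rose to a smaller extent. At day 3 it stood at 5.61, 6.53, 5.68 and 6.93 CPM in DTRADQ against 2.18, 2.99, 3.74 and 4.09 CPM in controls, with no overlap. The change was 0.93 (SE 0.21, adjusted p = 0.00129). At day 2 the levels were 3.42 to 5.38 CPM against 2.45 to 4.69 CPM, and the change of 0.53 (SE 0.22) did not pass (adjusted p = 0.119). Without control day-2 replicate 1, the highest control, it passed (adjusted p = 0.0246).

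Tgfb2 (ENSMUSG00000039239, chromosome 1, 186623186 to 186705992), a TGF-beta isoform of mesenchymal tissues, had the largest rise of the 10 genes. The day-3 level was 4.57, 5.26, 3.70 and 6.83 CPM in DTRADQ, from 84, 95, 56 and 140 reads. Controls held 1.02, 0.838, 0.135 and 0.490 CPM, from 24, 21, 3 and 12 reads. No library overlapped, and the change was 3.01 (SE 0.41, adjusted p = 2.04e-06), or 8.06-fold. At day 2 the DTRADQ levels of 0.778, 1.92, 3.01 and 1.96 CPM reached into the control range of 0.524 to 1.16 CPM in 1 library. That change of 1.29 (SE 0.44) missed the threshold (adjusted p = 0.0595), and passed under 5 other settings: DESeq2 (adjusted p = 0.0329), the 8 libraries of that day alone (0.0452), and without control no-DT replicates 3 and 4 (0.0353), DTRADQ day-2 replicate 1 (0.0165) or control day-2 replicate 1 (0.0456). At day 1 both genotypes lay under 0.802 CPM (change 0.42, SE 0.55, adjusted p = 0.761).

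Tgfb3 (ENSMUSG00000021253, chromosome 12, 86056744 to 86079041), the third TGF-beta isoform, rose in the same way. At day 3 it reached 4.36, 5.15, 3.90 and 5.12 CPM in DTRADQ against 0.512, 1.68, 0.677 and 0.449 CPM in controls. All DTRADQ libraries stood above the highest control. The change was 2.46 (SE 0.36, adjusted p = 6.22e-06), or 5.52-fold. At day 2 the groups also did not overlap, at 1.63 to 3.58 CPM against 0.839 to 1.5 CPM, but the change of 0.93 (SE 0.38) did not pass (adjusted p = 0.114). At day 1 it was -0.23 (SE 0.38, adjusted p = 0.817).

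Tgfb1 (ENSMUSG00000002603, chromosome 7, 25687002 to 25705077), the isoform abundant in blood cells and platelets, did not pass on any day of DT. Its level in DTRADQ was 2.50 to 2.92 CPM at day 1, 2.44 to 4.05 CPM at day 2 and 2.56, 3.32, 3.24 and 2.44 CPM at day 3. Controls at day 3 held 2.05, 2.52, 1.99 and 1.84 CPM, and the highest of them lay within the DTRADQ range. The change at day 3 was 0.46 with a 95% interval from -0.37 to 1.28 (SE 0.42, adjusted p = 0.475), so a rise of the size seen for Tgfb2 or Tgfb3 lay outside the interval. With the skeletal muscle covariate it was -0.17 (adjusted p = 0.843).

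The type I and type II receptors differed little between the genotypes after DT. Tgfbr1 (ENSMUSG00000007613, chromosome 4, 47353222 to 47414931) stood at 38.7, 36.9, 35.9 and 36.0 CPM in DTRADQ at day 3 against 31.9, 25.7, 31.9 and 23.5 CPM in controls. The ranges did not touch, with a change of 0.38 (SE 0.13, adjusted p = 0.0292), or 1.30-fold. It did not pass in 5 of 15 other settings, among them without DTRADQ replicate 2 (adjusted p = 0.0579), control replicate 2 (0.0851) or control replicate 4 (0.133). At day 1 its change was 0.01 (SE 0.13, adjusted p = 0.988) and at day 2 it was 0.18 (SE 0.13, adjusted p = 0.406). Tgfbr2 (ENSMUSG00000032440, chromosome 9, 116087698 to 116175363) stood at 18.6 to 24.8 CPM in DTRADQ and 15.8 to 22.3 CPM in controls at day 3. Those ranges overlapped widely. Its changes were 0.06, 0.01 and 0.15 at days 1, 2 and 3, with 95% intervals that reached at most from -0.28 to 0.43.

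Tgfbr3, which encodes betaglycan (ENSMUSG00000029287, chromosome 5, 107106570 to 107289629), was lower on all 3 days of DT. Controls held 8.15, 9.82, 8.69 and 8.97 CPM at day 1 and DTRADQ 4.55, 4.67, 3.42 and 1.84 CPM, a change of -1.28 (SE 0.22, adjusted p = 0.000188). At day 2 the levels were 11.3, 8.60, 11.5 and 9.11 CPM against 3.89, 3.67, 4.04 and 6.45 CPM in DTRADQ, with a change of -1.17 (SE 0.21, adjusted p = 0.000553). At day 3 they were 7.55, 10.7, 8.26 and 9.85 CPM against 5.12, 4.87, 5.15 and 3.27 CPM, with a change of -0.99 (SE 0.20, adjusted p = 0.000613). No library overlapped on any of the 3 days. Its genotype effect at day 3 did not differ detectably from that at day 1 (difference 0.29, SE 0.30, adjusted p = 0.676), with a 95% interval from -0.29 to 0.87.

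The ligands were also compared between days, in contrasts that were chosen after seeing the data and in which lane and day cannot be told apart. From day 1 to day 3 the genotype effect rose for Tgfb3 by 2.69 (SE 0.52, adjusted p = 0.000925), for Tgfb2 by 2.59 (SE 0.70, adjusted p = 0.0165), for Pdgfa by 1.47 (SE 0.39, adjusted p = 0.0165) and for Pdgfb by 1.14 (SE 0.31, adjusted p = 0.0165). With both PDGF receptors, 6 of the 10 genes thus passed, against 7.23% of all genes. Tgfb2 did not without control day-1 replicate 2 (adjusted p = 0.0955), nor Pdgfb without DTRADQ day-1 replicate 1 (adjusted p = 0.0501), and with the muscle covariate the adjusted p was 0.0682 for Tgfb2, 0.0944 for Pdgfa and 0.0836 for Pdgfb. From day 2 to day 3, where 1.36% of all genes were called, none of these ligands passed, with differences of 0.39 to 1.72 and adjusted p from 0.127 to 0.766. Pdgfa passed without DTRADQ day-2 replicate 2 (1.55, adjusted p = 0.0342) and Tgfb3 without control day-3 replicate 2 (2.14, adjusted p = 0.0289).

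**Figure D2:**
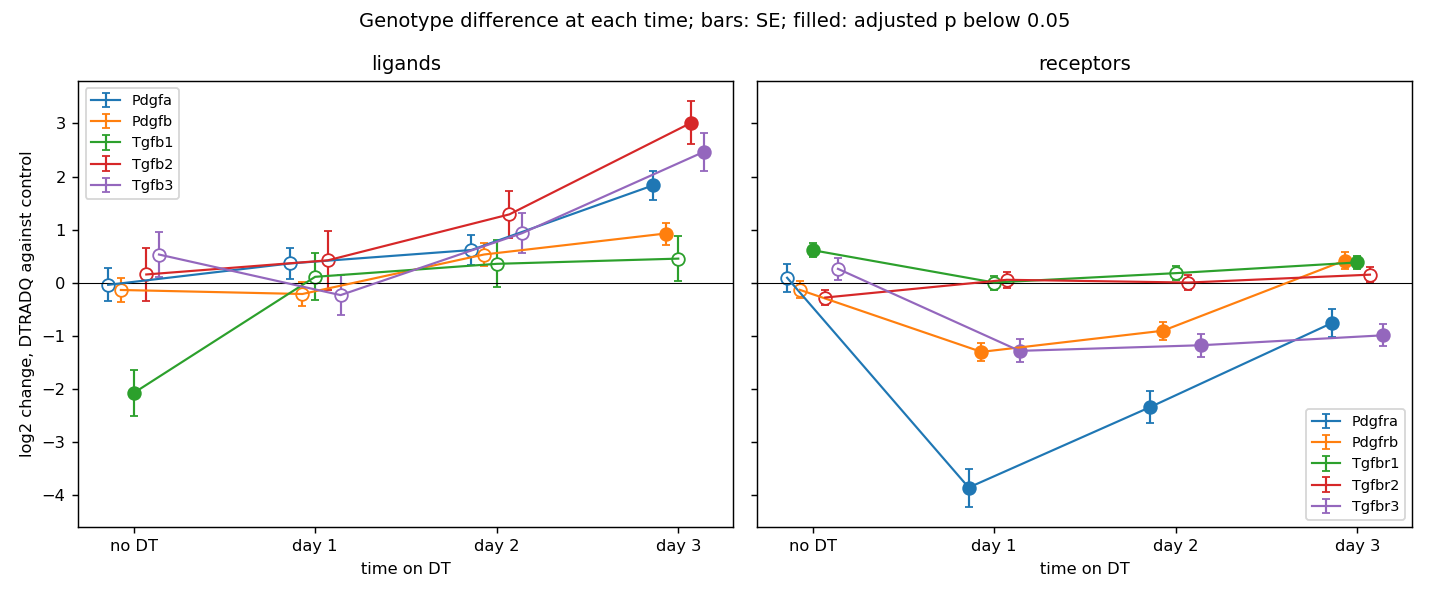
Log2 change of DTRADQ against controls (vertical axis) by time on DT, ligands at left and receptors at right, with SE bars and filled points where the adjusted p was below 0.05. The ligands Tgfb2 (3.01), Tgfb3 (2.46), Pdgfa (1.83) and Pdgfb (0.93) pass at day 3, while Pdgfra (-3.85), Pdgfrb (-1.30) and Tgfbr3 (-1.28) pass from day 1.

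The balance within each family shifted with these changes, given here as a description with no test. Of the summed TGF-beta ligand reads per length, Tgfb1 held 59.4 to 77.2% in controls at day 3 and 24.4 to 39.5% in DTRADQ. Tgfb2 held 2.85 to 18.5% in controls and 24.5 to 36.9% in DTRADQ, and Tgfb3 held 12.9 to 29.9% and 36.0 to 39.5%. At day 3 the 3 ligands were thus near equal in DTRADQ, while Tgfb1 led in every control. At day 1 the Tgfb1 share was 59.6 to 73.7% in DTRADQ and 49.8 to 72.5% in controls, which overlapped. Of the summed PDGF receptor reads per length, Pdgfra held 2.27 to 11.9% in DTRADQ at day 1 against 21.5 to 37.3% in controls. At day 3 it held 11.3 to 15.0% against 20.5 to 29.7%, so that Pdgfrb made up more of the PDGF receptor reads in DTRADQ on both days.

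**Figure D3:**
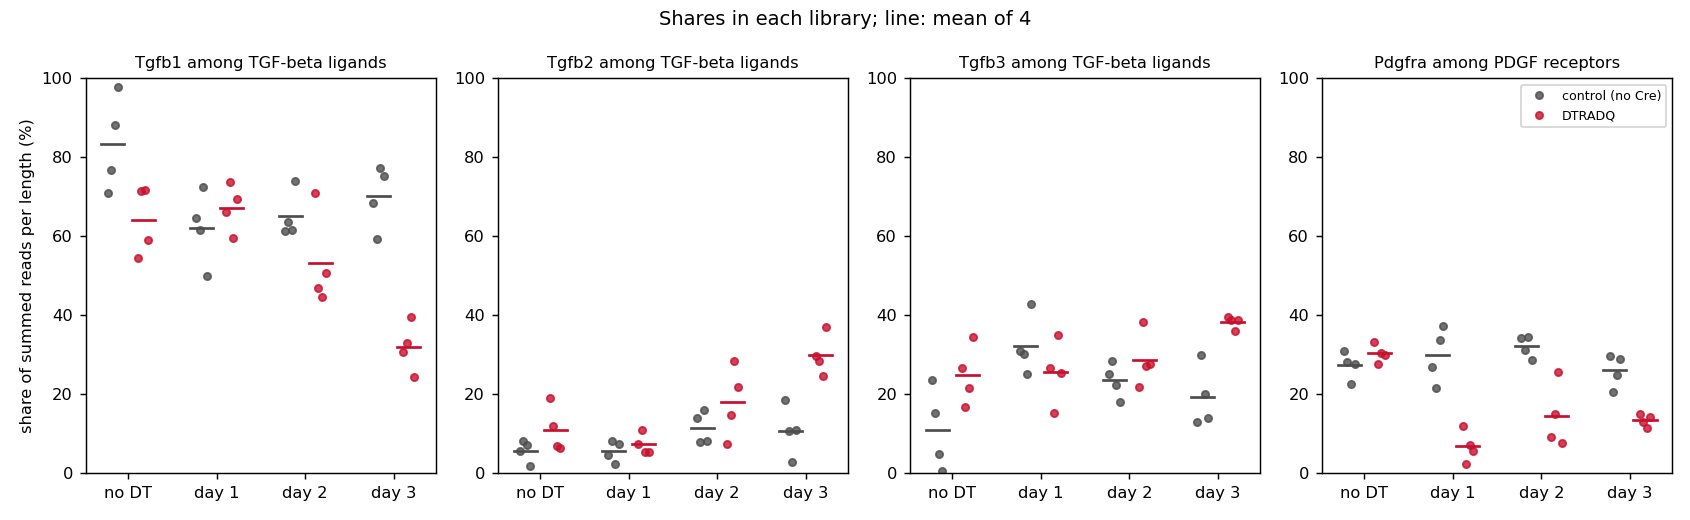
Share of summed reads per length (vertical axis, percent) held by Tgfb1, Tgfb2 and Tgfb3 among TGF-beta ligands and by Pdgfra among PDGF receptors, in each library by time on DT, with the mean of 4 libraries as a line. At day 3 the Tgfb1 share is 24.4 to 39.5% in DTRADQ and 59.4 to 77.2% in controls.

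Without DT, 2 of the 10 genes passed, against 27.1% of all genes. Tgfb1 was lower in DTRADQ, at 2.33, 2.69, 2.73 and 2.42 CPM against 2.84, 4.80, 5.95 and 32 CPM in controls. The last control library, replicate 4, stood far above the other 3. The change of -2.07 (SE 0.43, adjusted p = 0.000601) was -0.57 (adjusted p = 0.161) without control replicates 3 and 4, and -0.79 (adjusted p = 0.0197) without replicate 4 alone. Tgfbr1 was higher in DTRADQ, at 33.0, 28.0, 21.7 and 23.1 CPM against 17.6, 15.3, 15.8 and 20.7 CPM, with no overlap. The change of Tgfbr1 was 0.62 (SE 0.14, adjusted p = 0.0011), and 0.69 (adjusted p = 0.00411) without those libraries. In a fit of these 8 libraries alone neither passed (adjusted p = 0.122 for each), nor with the replicate block added to that fit (adjusted p = 0.148 for Tgfb1 and 0.113 for Tgfbr1). Pdgfra at 2.85 to 3.96 CPM in DTRADQ and 2.96 to 3.47 CPM in controls, Pdgfrb, Tgfbr3 and the other 5 genes did not pass before DT, with changes between -0.28 and 0.53.

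The genotype effect after DT was also compared with that before DT. At day 1, 5 of the 10 genes passed (1 higher, 4 lower, against 12.3% of all genes), at day 2, 4 passed (1 higher, 3 lower, against 11.1%) and at day 3, 6 passed (5 higher, 1 lower, against 21.0%). Pdgfra differed by -3.95 at day 1 (SE 0.45, adjusted p = 5.12e-07), and by -3.94 (adjusted p = 5.9e-06) without control no-DT replicates 3 and 4. At day 3 Tgfb2 differed by 2.85 (SE 0.66, adjusted p = 0.00234), and by 2.66 (adjusted p = 0.0111) without them. Pdgfa differed by 1.87 (SE 0.41, adjusted p = 0.0015), and by 1.65 (adjusted p = 0.00723) without them. Tgfb3 differed by 1.93 (SE 0.56, adjusted p = 0.0136), and by 2.42 (adjusted p = 0.00189) without them. Pdgfb differed by 1.06 (SE 0.30, adjusted p = 0.0123), and by 1.01 (adjusted p = 0.0259) without them. These 5 values kept their side of the threshold. Tgfb1 differed by 2.53 at day 3 (SE 0.60, adjusted p = 0.003), a value that dropped to 1.05 (adjusted p = 0.0233) without the 2 libraries, and at day 1 its difference of 2.19 (SE 0.61, adjusted p = 0.0175) became 0.68 (adjusted p = 0.2), or 0.90 (adjusted p = 0.0716) without replicate 4 alone. All day-3 libraries carry a different lane label from the rest, and in these differences lane and day cannot be told apart.

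DT in controls, which lack Cre, changed a share of the 10 genes near that of all genes. At day 1, 3 passed against 33.4% of all genes, at day 2, 2 against 28.3%, and at day 3, 2 against 30.2%. The genes were Tgfb1 (lower) and Tgfbr1 (higher) on each day and Tgfbr2 (lower) at day 1. Tgfb1 changed by -2.08 at day 1 (SE 0.43, adjusted p = 0.000389), and by -0.57 (adjusted p = 0.128) without control no-DT replicates 3 and 4. Tgfbr1 changed by 0.46, 0.48 and 0.71 at days 1, 2 and 3 (adjusted p = 0.00887, 0.0082 and 0.000156), and by 0.55, 0.56 and 0.79 without them. The change of Tgfbr2 at day 1, -0.41 (adjusted p = 0.0326), was -0.07 without them (adjusted p = 0.786). Of the genes that rose in DTRADQ at day 3, the control values were 0.14 for Pdgfa, -0.33 for Pdgfb, -0.27 for Tgfb2 and -0.12 for Tgfb3, none past the threshold. These comparisons share the control libraries with the genotype comparisons. The day-3 controls also carry a different lane label from the controls without DT, so lane and DT cannot be told apart at day 3.

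The wider pathways were read from lists of genes given by name. These lists, and those of cell type markers below, were chosen with earlier results of these data known, so their counts are descriptions only. Among 21 tested genes that TGF-beta is known to induce, 6 rose and 2 fell at day 1. At day 2, 8 rose, and at day 3, 15 rose. Of all genes, 3.90%, 8.52% and 22.9% were called on these 3 days. Without DT 2 were higher and 1 lower, against 27.1% of all genes. The test of day 3 against no DT called 12 of 21, all higher, against 21.0%. The median change was 0.24, 0.43 and 1.63 at days 1, 2 and 3, against -0.01, -0.04 and -0.02 over all genes. Tagln, a smooth muscle cytoskeletal protein, stood at 7.42, 6.49, 8.82 and 5.53 CPM in DTRADQ at day 1 against 0.674, 1.28, 1.25 and 1.26 CPM in controls (change 2.67, SE 0.31, adjusted p = 3.94e-07). At day 3 it stood at 53.9, 53.9, 44.0 and 80.5 CPM against 0.640, 1.44, 0.902 and 1.02 CPM (change 5.84, SE 0.31, adjusted p = 3.68e-15). Its rise passed at day 1, and a link to the ligands was not tested.

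Other genes of that list rose by day 3 as well. Ccn2, a matricellular protein, was lower in DTRADQ without DT, at -1.48 (adjusted p = 0.0115), and changed by 2.14, 3.06 and 3.92 on the 3 days (adjusted p = 0.00232, 3.4e-06 and 5.91e-09). Postn, a matrix protein of periosteum, changed by 3.64 at day 3 (SE 0.27, adjusted p = 2.42e-11), and Timp1, a protease inhibitor, by 4.35 (SE 0.39, adjusted p = 1.11e-09). Lox, a collagen crosslinker, went the other way first, at -1.97 at day 1 (SE 0.40, adjusted p = 0.00201), and then at 1.98 at day 3 (SE 0.31, adjusted p = 1.51e-05).

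Genes of TGF-beta latency and activation divided by day. At day 1, 1 of 19 tested rose and 3 fell, against 3.90% of all genes called. At day 2, 4 rose and 3 fell, against 8.52%. At day 3, 11 rose and 2 fell, with a median change of 0.61, when 22.9% of all genes were called. Without DT 4 were higher and 1 lower, a share near the 27.1% of all genes. The test of day 3 against no DT called 2 higher and 1 lower, against 21.0% of all genes. The falls at day 1 were in matrix genes. Bgn, the proteoglycan biglycan, changed by -1.63 at day 1 (SE 0.22, adjusted p = 4.72e-06), Fbn1, fibrillin, by -1.98 (SE 0.31, adjusted p = 6.11e-05) and Ltbp2, a latent TGF-beta binding protein family member, by -2.46 (SE 0.44, adjusted p = 0.000458). Bgn stood higher at day 3, at 0.78 (SE 0.21, adjusted p = 0.00702), and Fbn1 likewise at 0.68 (SE 0.25, adjusted p = 0.0493), while Ltbp2 stayed lower at -1.90 (SE 0.37, adjusted p = 0.000287). Dcn, decorin, a proteoglycan that binds TGF-beta, was lower at day 3 at -1.31 (SE 0.21, adjusted p = 3.09e-05). Thbs1, thrombospondin, an activator of latent TGF-beta made by platelets among others, was higher in DTRADQ without DT already, by 0.79 (adjusted p = 0.00318), and by 0.77, 1.21 and 1.04 on the 3 days (adjusted p = 0.0161, 0.000105 and 0.000184). Mmp2, a matrix protease, was higher without DT by 1.12 (adjusted p = 0.0276) and at day 3 by 1.58 (SE 0.32, adjusted p = 0.000419). The genotype effect on either gene at day 3 did not differ detectably from that without DT (0.25 for Thbs1 and 0.45 for Mmp2, adjusted p = 0.56 and 0.563).

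Shares of signal transducers, inhibitors and other PDGF genes called are read beside those of all genes, 3.90%, 8.52% and 22.9% at days 1, 2 and 3. Without DT the genotypes already differed in 2 of 11 transduction genes, 2 of 12 feedback inhibitors and 4 of 14 other PDGF genes, against 27.1% of all genes. Of 11 tested transduction genes 0 passed at day 1 by edgeR's adjusted p, where 2 had an unadjusted p below 0.05 and DESeq2 called 1. At day 2, 1 rose, the receptor Acvrl1 (change 1.24, adjusted p = 0.0062), and at day 3, 2 rose and 1 fell. The endothelial receptors Acvrl1 (change 0.80, adjusted p = 0.0347) and Eng (0.72, adjusted p = 0.0288) rose at day 3, and the kinase Map3k7 fell (-0.72, adjusted p = 0.000286). Of 12 tested feedback inhibitors 0 passed at days 1 and 2 by edgeR's adjusted p, where 2 on each day had an unadjusted p below 0.05 and DESeq2 called 0 and 1. At day 3, 2 rose, Pmepa1 (change 1.40, adjusted p = 0.000377), which is itself induced by TGF-beta, and Fkbp1a (0.61, adjusted p = 0.0148). Of 14 other PDGF pathway genes, 1 fell at each of days 1 and 2, and 3 rose and 2 fell at day 3. Pdgfc, a further ligand of the alpha receptor, rose by 1.16 at day 3 (SE 0.27, adjusted p = 0.00197), and Sparc, a matrix protein that binds PDGF, fell at day 1 (-0.76, adjusted p = 0.0396) and rose at day 3 (1.28, adjusted p = 5.16e-05). Pik3r1, a regulatory subunit of the kinase PI3K, fell at day 3 (-0.88, adjusted p = 0.00011).

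**Figure D4:**
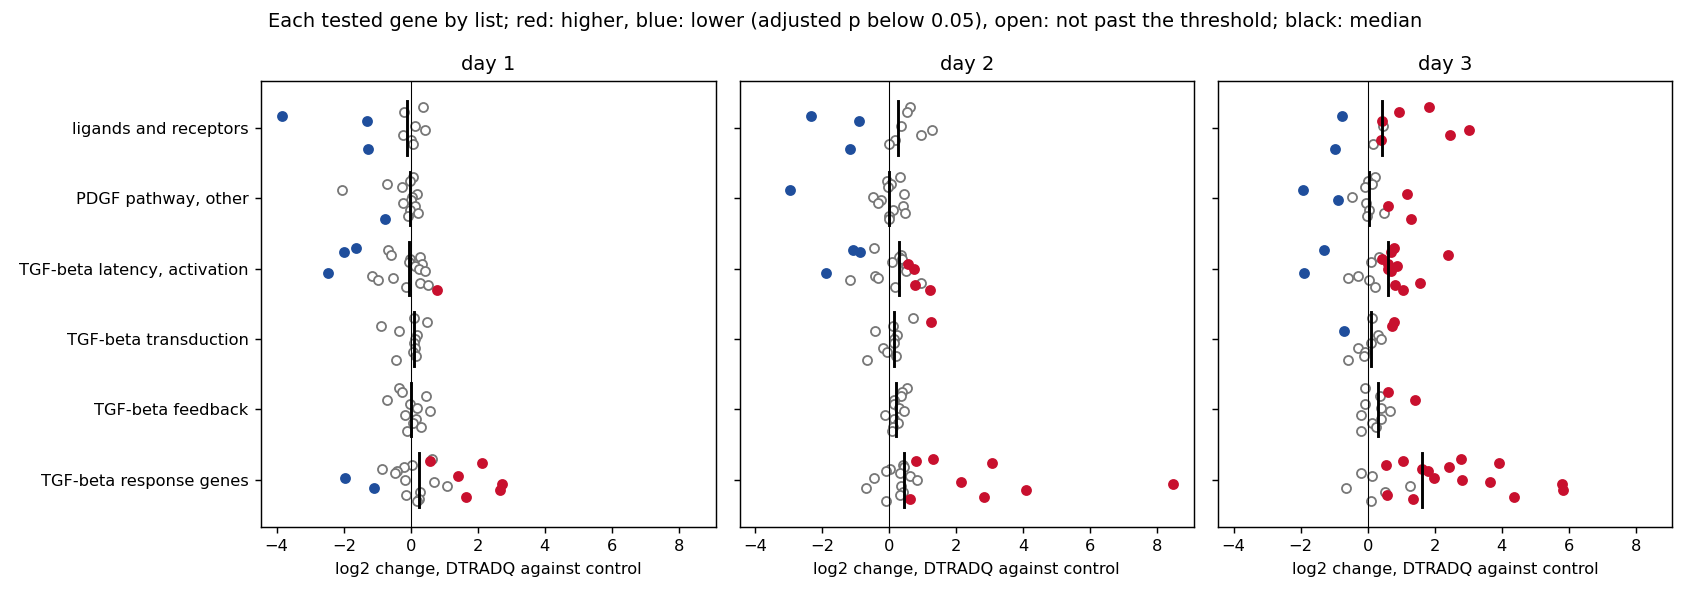
Log2 change of DTRADQ against controls (horizontal axis) of each tested gene in the 10 ligands and receptors and in 5 pathway lists at days 1, 2 and 3, red higher and blue lower at an adjusted p below 0.05, open otherwise, with the median as a black line. The median of the TGF-beta response genes is 1.63 at day 3. Where a group held no reads of a gene, the fitted position is not a measured fold.

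Markers of several cell types moved at the same time, and their part in the results was not tested. The counts of markers called are read beside 27.1% of all genes without DT, 3.90% at day 1 and 22.9% at day 3. Adiponectin lineage stroma fell: the summed level of its 14 markers was 625 to 881 CPM in DTRADQ against 933 to 1570 CPM in controls at day 1, and 476 to 679 against 1000 to 1310 CPM at day 3, with 13 and 12 of 14 lower. Osteoblast markers stood at 48.9 to 58.4 against 160 to 250 CPM at day 1 and at 89.9 to 111 against 159 to 247 CPM at day 3, although only 1 and 2 of 9 tested passed as lower, and 1 as higher at day 3. Pdgfra and Tgfbr3 were lower on both of these days, and Pdgfrb at day 1. T and NK cell markers also had 6 of 13 lower at day 1 (median change -1.11) and 3 higher at day 3, after 4 lower without DT. The shares at day 3 and without DT were near those of all genes. The T and NK cell sums were 265 to 337 CPM in DTRADQ against 300 to 360 CPM in controls at day 1.

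At day 3, when the ligands were higher and 22.9% of all genes were called, other lists were higher too, some of them already at day 1 by their sums. Endothelial markers summed to 215 to 279 CPM in DTRADQ against 122 to 159 CPM in controls, with 8 of 13 tested higher. Pericyte and smooth muscle markers summed to 167 to 203 against 62.7 to 75.8 CPM, with 4 of 9 higher and 3 lower. This list shares Acta2 and Cnn1 with the TGF-beta response genes. Platelet and megakaryocyte markers summed to 3380 to 4110 against 2380 to 3090 CPM, with 6 of 14 higher, and fibroblast markers to 533 to 648 against 329 to 501 CPM, with 3 of 10 higher and 1 lower. Skeletal muscle markers, a sign of tissue outside the marrow, summed to 135 to 761 against 50.0 to 77.2 CPM, with 9 of 12 higher. With their mean as a covariate the changes at day 3 were 2.78 for Tgfb2 (adjusted p = 0.000336), 2.12 for Tgfb3 (adjusted p = 0.00101), 1.63 for Pdgfa (adjusted p = 0.000808) and 0.81 for Pdgfb (adjusted p = 0.031). All 4 rises kept their side of the threshold there. At day 1 the muscle sums were 43.3 to 64.4 CPM in DTRADQ and 46.2 to 53.3 CPM in controls, and 0 of the muscle markers passed by edgeR's adjusted p, where 1 had an unadjusted p below 0.05 and DESeq2 called 1. Myh1 and Myh2 were at 0 reads in DTRADQ that day. The platelet and megakaryocyte sums of day 1 were 3370 to 4760 CPM in DTRADQ against 2510 to 3160 CPM in controls, with 2 of 14 called against 3.90% of all genes. Without DT their order was reversed, at 3440 to 4300 against 5110 to 6970 CPM. Pericyte and smooth muscle sums at day 1 were 72.2 to 84.6 against 56.2 to 67.6 CPM, while those of endothelium and fibroblasts overlapped.

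The genes whose log2 CPM followed each member most closely over the 32 libraries are given as a description, since all points share the groups and libraries. Pdgfra was nearest to Ackr4 (Pearson r = 0.924), Srpx (0.92) and Ptprd (0.916). Tgfbr3 was nearest to Fbln5 (r = 0.929), Grem1 and Lepr (0.91 each), the last 2 of which stand on the stroma list. Pdgfrb was nearest to Ccn5 (r = 0.906), Col6a1 (0.899) and Dpysl3 (0.876). The ligands that rose had other neighbours. Pdgfa was nearest to Mmd (r = 0.875), Ccn4 (0.865) and Gzme (0.859), Pdgfb to Aebp1 (0.866), followed by Parva and Col4a1, Tgfb2 to Angpt2 (0.846), Mirt1 (0.841) and Mmd (0.837), and Tgfb3 to Ecm1 (0.824), Oas2 (0.82) and Postn (0.816). Tgfbr1 was nearest to Bcl6 (r = 0.904), Cmtm6 (0.901) and Itgav (0.892). The nearest genes of Tgfbr2 reached r = 0.727, and those of Tgfb1, led by Pnck (r = 0.927), share its 1 high library.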

How the data were processed

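Whole femur marrow of 32 mice was measured by RNA-seq, 1 library a mouse. Per the labels' protocols the libraries were made with the Clontech SMARTer kit, and per the submitters' processing notes the tools were bcl2fastq, STAR 2.0.4b, Subread and featureCounts 1.45 with the GRCm38 build. Whether the counting used strand is not given in the sources used here, so reads of overlapping and antisense genes cannot be told apart. The authors deposited whole-number counts per gene, with CPM and RPKM columns beside them, per the file headers. The deposited CPM were each count over its library's total (differences up to 4.4e-10), and the deposited RPKM also divided by gene length (up to 4.7e-10). Totals were 8.97 to 22.9 M counts, median 14.2 M, and 97.26% of 41388 rows carried a symbol.

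Counts were scaled by TMM and tested in edgeR 4.0.16 (limma 3.58.1, R 4.3.3) by the quasi-likelihood test in 1 model of 8 group means, after filterByExpr with a minimum count of 10 (14527 genes), with Benjamini-Hochberg adjusted p over all genes and a threshold of 0.05. An SE is the size of the log2 change over the root of the F value. The model was checked on simulated data. Members and gene lists were chosen with earlier results of these data known. All 10 members are named, with up to 4 genes of each pathway list with the smallest p-values among those past the threshold in a genotype comparison and the 3 genes with the closest log2 CPM; 1 gene that the rule names is not reported here. The alternatives were DESeq2 1.42.0, its size factors in edgeR, no filter, only the groups compared, a replicate block, a skeletal muscle covariate, leaving out control no-DT replicates 3 and 4, and leaving out each library. The contrasts between days and the block fitted on only the groups compared were added after seeing the data.

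Titles number the libraries of each group 1 to 4, and no label says what a number means. Same-numbered libraries of the 2 genotypes had deviations correlated between -0.157 and 0.178. The correlation was over 0.1 for all 4 pairs without DT (0.144 to 0.178) and for 6 of 16 pairs in all, so the numbers were taken as pairs without DT only.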

Additional observations from a re-analysis of the deposited data

Results flagged for a closer look

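In 6 of 80 groups of 4 libraries, 1 library stood apart from the other 3 by the size of its gap, where chance gives about 1 in 20. Control day-3 replicate 3 held 3.07 CPM of Pdgfa, the others 2.21 to 2.30. Control day-2 replicate 1 held 4.69 CPM of Pdgfb, the others 2.45 to 2.75. Control no-DT replicate 3 held 9.28 CPM of Pdgfrb, the others 6.31 to 6.49, and control no-DT replicate 4 held 32 CPM of Tgfb1, the others 2.84 to 5.95. DTRADQ day-2 replicate 4 was high in Tgfbr3, at 6.45 against 3.67 to 4.04 CPM, and DTRADQ day-3 replicate 4 was low in it, at 3.27 against 4.87 to 5.15 CPM. Both lay below all controls of their day.

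The genotype effect with DT differed from that without DT in 15 cases by the test of the difference (edgeR, adjusted p). Pdgfra differed by -3.95 at day 1 and -2.43 at day 2 (adjusted p = 5.12e-07 and 0.000251), and Pdgfrb by -1.17 and -0.77 (0.00128 and 0.0281). The day-2 call of Pdgfrb was lost in 5 of 23 other settings, among them without DTRADQ no-DT replicate 3 (0.0593) or DTRADQ day-2 replicate 3 (0.06). Tgfbr3 differed by -1.54, -1.44 and -1.25 at days 1, 2 and 3 (0.00105, 0.00218 and 0.00258), and Tgfbr1 by -0.61 at day 1 (0.031). The Tgfbr1 call was lost in 7 of 23 other settings, 5 of them fits without a single library (DTRADQ no-DT replicate 1 or 2, DTRADQ day-1 replicate 1, or control day-1 replicate 1 or 4), with adjusted p up to 0.128, and its change at day 1 itself was 0.01. Ligands other than Tgfb1 differed at day 3 alone: Tgfb2 by 2.85 (0.00234), Tgfb3 by 1.93 (0.0136), Pdgfa by 1.87 (0.0015) and Pdgfb by 1.06 (0.0123). Tgfb1 differed by 2.19, 2.43 and 2.53 on the 3 days (0.0175, 0.00966 and 0.003), and without control no-DT replicates 3 and 4 by 0.68, 0.94 and 1.05 (0.2, 0.0704 and 0.0233).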

How the results depend on the processing

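No member value past the threshold changed sign in the settings run, though some values short of it did, such as Tgfb1 at day 3 (0.46, and -0.17 with the skeletal muscle covariate). Of 8 members passing at day 3, 5 passed with no filter on low counts, 5 with the skeletal muscle covariate and 5 to 7 without 1 library (5 without control replicate 4). Pdgfa, Pdgfb, Tgfb2, Tgfb3 and Tgfbr3 passed in every setting, and Pdgfra, Pdgfrb and Tgfbr1 did not. The 3 falls at day 1 passed in every setting, and leaving out 1 library gave 3 to 3 there and 3 to 5 at day 2, where the main count was 3 (5 without control replicate 1). Without DT the count of 2 became 1 without control replicates 3 and 4, 0 in the fit of only the groups compared and 0 with the replicate block in that fit (edgeR; 2 at an unadjusted p below 0.05 in both, and 2 by DESeq2), and 2 to 3 without 1 library. The replicate block over all groups changed no count of members: 2 without DT, 3, 3 and 8 on the 3 days. The genotype-by-DT counts of 5, 4 and 6 became 3 and 2 at days 1 and 2 with only the groups compared, and 4 to 6, 3 to 5 and 6 to 8 without 1 library. DT in controls gave 3, 2 and 2, which became 0, 0 and 1 with only the groups compared (2 at an unadjusted p on each day), 1 and 1 at days 1 and 2 without control replicates 3 and 4, and 2 to 3 without 1 library.

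Over all genes, 3944 without DT became 0 with only the groups compared (3068 at an unadjusted p below 0.05; DESeq2 over all groups 4281), 0 with the block added (3445 at an unadjusted p), 1900 without control replicates 3 and 4, 2285 without replicate 3 and 5939 without replicate 1. Day 1 (567) gave 1010 with only the groups compared and 1340 without control no-DT replicates 3 and 4, and 327 without control replicate 3. Day 2 (1238) gave 2621, 2887 and as few as 569 (without control replicate 4), and day 3 (3330) gave 5143 with only the groups compared. The genotype-by-DT counts of 1793, 1613 and 3056 were 449, 356 and 1669 there, up to 3951 and 3749 at days 1 and 2 without control no-DT replicate 1, and 2463 at day 2 with the muscle covariate. The control counts of 4859, 4109 and 4391 were 890, 646 and 860 with only the groups compared, and 3148 at day 1 without replicates 3 and 4. Day 3 against day 1 (1050) gave 2053 and 1827 in those fits, and day 3 against day 2 (198) gave 8 with the muscle covariate and up to 478. Causes of these differences were not tested. Depth limits Pdgfra at day 1, with 1 to 5 reads in DTRADQ.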
